A study of Oryctolagus cuniculus with 49 samples.

Results

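Collagens, laminins and nidogens build the fibres and basement membranes of the eye, and their transcripts were measured here in rabbit iris with ciliary body, with and without lens surgery. The genes were taken by name, as every symbol of the deposited table that starts as a numbered collagen chain (COL), a laminin chain (LAMA, LAMB or LAMC) or a nidogen (NID). The rule found 47 of 12948 gene symbols, of which 46 are matrix genes (36 collagens, 8 laminins and 2 nidogens). The remaining symbol, COL4A3BP, encodes a ceramide transfer protein, belongs to no matrix family and passed the test in none of the 6 comparisons. Of the matrix genes, 11 are fibrillar collagens, 8 network-forming collagens, 8 FACIT collagens (fibril-associated collagens with interrupted triple helices), 3 chains of beaded-filament collagen VI and 6 anchoring, transmembrane or other collagens.

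The samples came from New Zealand white rabbits, a laboratory breed with no labelled genetic change. In operated eyes the lens had been removed and an artificial intraocular lens inserted. The 26 libraries fall into 5 groups. Animals 5 weeks old gave 7 unoperated and 3 operated libraries, animals 6.5 weeks old gave 3 operated ones, and adults aged 6 months gave 7 unoperated and 6 operated ones. The series asks how the front of the eye responds to this surgery in young and adult animals. No unoperated eyes of 6.5 weeks are labelled, so in that group surgery and growth cannot be told apart. The labels used here give neither sex nor the time between surgery and sampling. Each library carries its own animal number in its title, so p-values measure the spread between animals.

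Fibrillar collagens such as types I, III and V assemble into the banded fibres of stroma and sclera, and types II and XI do so in cartilage and vitreous. FACIT collagens attach to the surface of those fibrils, with type IX lying on type II fibrils. Type IV collagen forms a mesh in every basement membrane together with laminin trimers (1 alpha, 1 beta and 1 gamma chain), and nidogens link the laminin and collagen networks.

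Levels are FPKM (fragments relative to the length of the transcript and the size of the library), summed over the transcripts of a symbol. Because FPKM is per length, levels of different genes can be set side by side. The read depth behind the values is unknown, and the FPKM sum per library ran from 412936 to 504202. The 6-month libraries summed to 431241 to 456586 FPKM without surgery and to 476369 to 504202 FPKM after it. A gene is said to have risen, fallen or changed where limma on log2(FPKM + 0.5), fitted over all 12948 genes, gave a Benjamini-Hochberg adjusted p under 0.05. Changes are differences on that log2 scale with their standard error (SE), or the same as a fold, and they understate the change of low genes.

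The tissue markers were present in all groups. The smooth muscle myosin MYH11 ranged from 140 to 583 FPKM over the group extremes, and the pigment enzyme TYR from 104 to 228 FPKM. The corneal keratin KRT12 stayed between 2.6 and 23.0 FPKM. The lens crystallin CRYAA reached 16756 FPKM in 1 unoperated 5-week eye and exceeded 1000 FPKM in 8 libraries, 1 to 4 in each group except the operated 6.5-week eyes. Results that move with it are given below with and without those libraries.

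In unoperated eyes the highest members were COL1A1 (mean 1254 FPKM over both ages), COL1A2 (919 FPKM), COL3A1 (638 FPKM), COL9A2 (379 FPKM) and COL2A1 (288 FPKM). The highest laminin was the beta chain LAMB2 at 126 FPKM and the higher nidogen was NID1 at 64.8 FPKM. The lowest members, COL26A1, LAMB3 and COL11A2, stood at 1.91, 1.60 and 1.60 FPKM. A transcript is in the table where every library of some group (both juvenile operated groups taken as 1, so 4 groups) exceeds 1 FPKM. By the FPKM summed over transcripts, 41 of the 46 members met that bound in all 4. The 5 exceptions were in the table through only some groups: COL26A1 and LAMB3 through the unoperated 5-week eyes, LAMA1 through both juvenile groups, COL11A2 through the unoperated 5-week and operated 6-month eyes, and COL7A1 through all but the operated 6-month eyes. A difference towards such a group is favoured by the way the table was made, so counts over the 41 are given beside those over the 46. Single transcripts of the 41 can still miss the bound in some groups. Of the 3 COL4A5 transcripts, 1 held a median of 17.7% of the gene's FPKM in unoperated 5-week eyes. Its lowest share was 0% in each 6-month group. This favours a fall of COL4A5 with age, so the counts over the 41 are not free of the bound. Genes of the same families that appear under no family symbol, such as LAMC1 and COL18A1, were not reached by the rule. The table also holds 11 rows under locus numbers that RefSeq describes as chains of these families, among them nidogen-1 (mean 25.9 FPKM), laminin gamma-1 (82.5 FPKM) and copies of collagen I and III chains (1.43 to 7 FPKM). They may share reads with the named members, whose levels are uncertain to that extent.

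**Figure D1:**
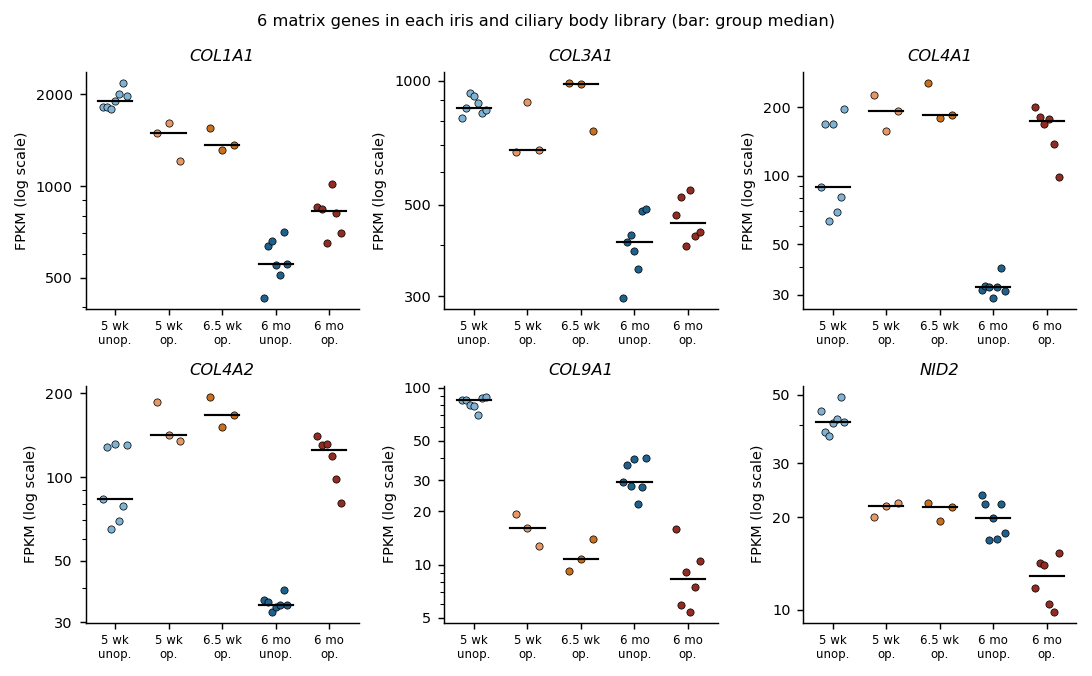
FPKM (log scale) of 6 marker genes of the set, 1 point per library and 1 panel per gene, in the 5 groups (wk, weeks; mo, months; unop., unoperated; op., operated), with bars at the group medians. COL4A1 and COL4A2 are low in all 7 unoperated 6-month eyes (at most 39.6 and 39.1 FPKM), and COL9A1 is lower in every operated eye than in any unoperated eye of the same age.

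Surgery at 6 months moved the matrix genes in both directions, and the falls were the more numerous. Of 46 members 7 rose and 24 fell, and 15 did not pass (7, 23 and 11 of the 41). Over all genes 16.0% rose and 30.1% fell, so the share that rose among the members (7 of 46) was near the background and the share that fell (24 of 46) was above it. The median change of the members was -0.41 on the log2 scale, beside -0.11 for all genes. In 4 members all operated eyes lay above all unoperated eyes (8.15% of all genes) and in 16 they lay below (12.8% of all genes). The samples are pieces of whole tissue, in which fewer cells of a type and less RNA per cell cannot be told apart.

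Juvenile surgery was measured as the mean of the operated 5-week and 6.5-week eyes against the unoperated 5-week eyes. Of the 46 members 5 rose, 25 fell and 16 did not pass (5, 23 and 13 of the 41), beside 37.3% of all genes that changed, 16.5% up and 20.8% down. The median change was -0.44 for the members and -0.06 for all genes. Groups were separate with operated eyes higher in 4 members (7.83% of all genes) and lower in 15 (7.87% of all genes). The juvenile and the 6-month comparison share no library.

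**Figure D2:**
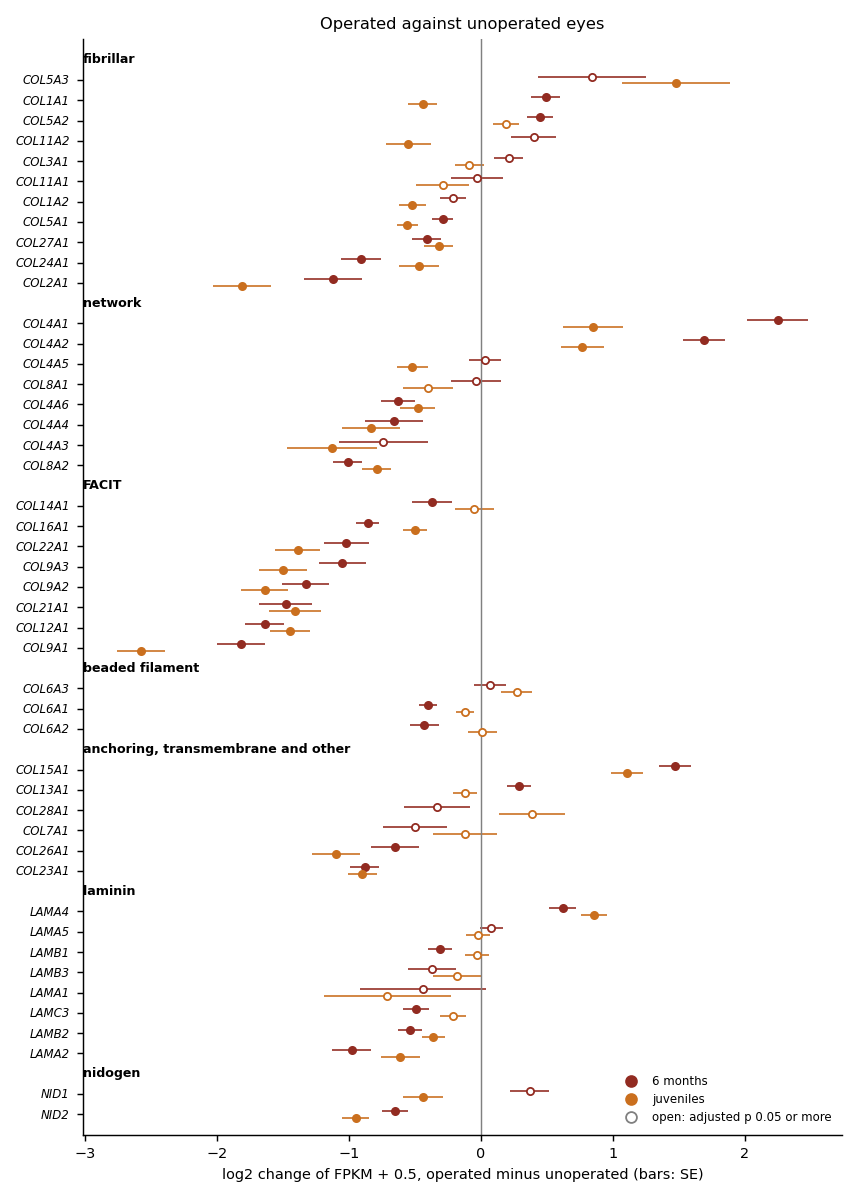
Log2 change (operated minus unoperated, FPKM + 0.5) of each of the 46 members at 6 months (dark red) and in juveniles (orange), grouped by class; bars are 1 SE and open points did not pass the test. FACIT points lie left of 0 at both ages, with COL9A1 farthest at -1.82 and -2.58, whereas COL4A1, COL4A2 and COL15A1 lie to the right at both.

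The FACIT collagens fell as a class. All 8 measured members (COL9A1, COL9A2, COL9A3, COL12A1, COL14A1, COL16A1, COL21A1 and COL22A1) fell at 6 months, with a median of -1.19, and 7 of 8 fell in juveniles, with a median of -1.43. Of all genes 30.1% fell at 6 months and 20.8% in juveniles. The same 7 members had no overlap between operated and unoperated eyes at either age. COL14A1 was the exception, at -0.37 ± 0.15 (SE; limma adjusted p = 0.042) at 6 months and -0.05 ± 0.15 in juveniles, and its 6-month call was lost in 15 of 27 alternative settings.

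COL9A1, a chain of collagen IX, was the member that fell most. At 6 months it ranged from 21.9 to 40.3 FPKM in unoperated eyes (median 29.3) and from 5.41 to 15.9 FPKM in operated eyes (median 8.29). In juveniles the unoperated eyes held 69.9 to 89.0 FPKM (median 85.1), and the operated eyes held 19.3, 16.1 and 12.8 FPKM at 5 weeks and 9.21, 10.7 and 14.0 FPKM at 6.5 weeks. Every operated eye lay below every unoperated eye of its comparison. The folds were 3.53 lower at 6 months (-1.82 ± 0.18, limma adjusted p = 2.27e-08) and 5.98 lower in juveniles (-2.58 ± 0.18, adjusted p = 8.19e-11).

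The partner chains of collagen IX moved the same way by smaller amounts. COL9A2 went from 227 to 345 FPKM (median 277) in unoperated to 76.7 to 175 FPKM (median 102) in operated 6-month eyes, a change of -1.33 ± 0.18 (adjusted p = 2.5e-06). COL9A3 changed by -1.05 ± 0.18 at 6 months, and the juvenile changes were -1.64 ± 0.18 for COL9A2 and -1.50 ± 0.18 for COL9A3. The ratio of COL9A1 to COL9A2 FPKM had medians of 0.170 in unoperated and 0.088 in operated 5-week eyes, with no overlap (0.139 to 0.216 against 0.0848 to 0.0971). The 6-month ranges of this ratio were 0.0858 to 0.147 without and 0.0563 to 0.0970 with surgery, and they overlapped.

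The FACIT collagens outside type IX fell too. COL12A1, which is found in dense connective tissue, ranged from 51.3 to 77.2 FPKM (median 62.9) in unoperated and from 14.4 to 25.6 FPKM (median 21.1) in operated eyes at 6 months. Its juvenile values were 44.7 to 81.2 FPKM (median 62.4) without surgery, and 29.3, 25.9 and 17.6 FPKM at 5 weeks and 23.8, 22.1 and 20.1 FPKM at 6.5 weeks with it. The groups were again separate, at 3.12-fold lower (adjusted p = 2.82e-09) and 2.73-fold lower (adjusted p = 2.9e-08). COL21A1 fell by 1.48 and 1.41, COL22A1, a collagen of tissue junctions, fell by 1.02 and 1.39, and COL16A1 fell by 0.86 and 0.50 on the log2 scale at 6 months and in juveniles.

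As a share of the summed FPKM of the 36 collagens, the FACIT class took 14.3% to 19.1% in unoperated and 6.44% to 9.34% in operated eyes at 6 months. In juveniles the share was 12.5% to 14.1% without surgery, 7.50% to 8.22% in operated eyes of 5 weeks and 6.05% to 9.13% in those of 6.5 weeks. These shares did not overlap between operated and unoperated eyes in either comparison.

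**Figure D3:**
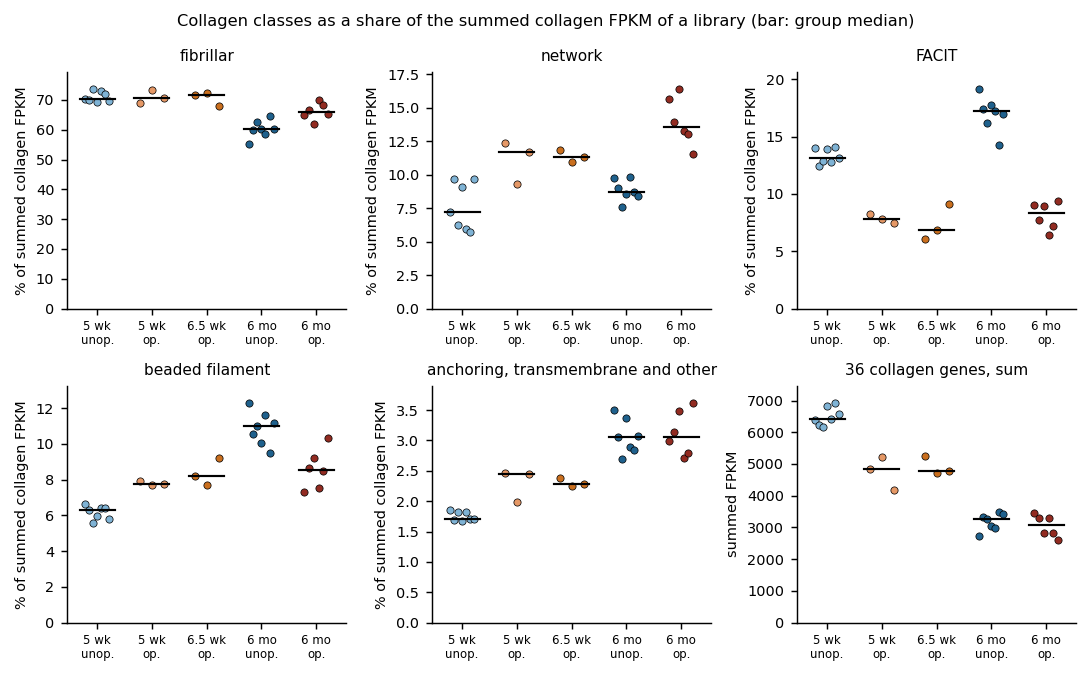
Share of the summed collagen FPKM (%) held by each of 5 collagen classes, and the sum itself (FPKM, last panel), 1 point per library in the 5 groups, with bars at the group medians. The FACIT share is lower in all operated eyes, and the sum is 6163 to 6910 FPKM in unoperated 5-week eyes and 2714 to 3488 FPKM in unoperated 6-month eyes.

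Markers of the ciliary epithelium, the paired cell layers that secrete aqueous humour, fell in the same comparisons. Of 11 genes on that list 9 were measured, and 7 of the 9 fell and 1 (AQP1) rose at 6 months as in juveniles. Counts of this and later cell type lists are to be read beside the shares of all genes. These were 16.0% up and 30.1% down at 6 months, 16.5% and 20.8% in juveniles, and 11.4% and 9.46% with age in unoperated eyes. The summed level of the ciliary genes was 2618 to 3508 FPKM in unoperated and 1397 to 2586 FPKM in operated 6-month eyes. Juvenile sums were 2562 to 4546 FPKM without surgery, 1542 to 2037 FPKM in operated eyes of 5 weeks and 1223 to 2043 FPKM in those of 6.5 weeks. CRB1 and AQP4 were not measured. The vitreous proteoglycan OPTC, a large part of that sum, had medians of 1675 and 824 FPKM in unoperated and operated 6-month eyes, and the channel BEST2 had 25.9 and 2.5 FPKM. With age in unoperated eyes COL9A1, COL9A2, COL9A3 and COL2A1 fell as well. Of the 9 measured ciliary genes 1 (AQP1) rose and none fell in that comparison, with a median change of 0.05. The part of this cell type in the falls of COL9A1, COL9A2, COL9A3 and COL2A1 was not tested. Pigment cell genes fell with surgery too, with 8 of 8 lower at 6 months and 7 of 8 in juveniles. Their summed 6-month level was 2062 to 2575 FPKM without and 1242 to 1815 FPKM with surgery.

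The fibrillar collagens had members in both directions. At 6 months 2 of 11 rose (COL1A1 and COL5A2), 4 fell (COL2A1, COL5A1, COL24A1 and COL27A1) and 5 did not pass, with a median of -0.03, shares near those of all genes (16.0% rose and 30.1% fell). In juveniles 1 rose (COL5A3), 7 fell and 3 did not pass, with a median of -0.44, where 16.5% of all genes rose and 20.8% fell.

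COL2A1, the chain of the type II fibril, fell together with the type IX chains. It ranged from 175 to 287 FPKM (median 206) in unoperated and from 66.8 to 170 FPKM (median 87.0) in operated 6-month eyes. In juveniles it was 274 to 485 FPKM (median 337) without surgery, and 148, 116 and 110 FPKM at 5 weeks and 61.0, 56.3 and 177 FPKM at 6.5 weeks with it. No operated eye reached an unoperated eye of its comparison. The changes were -1.12 ± 0.22 (adjusted p = 0.000239) and -1.81 ± 0.22 (adjusted p = 7.72e-07).

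The 2 RefSeq transcripts of COL2A1 also shifted against each other. The transcript with a curated (NM) record held 49.1% to 52.6% of the gene's FPKM in unoperated and 57.8% to 66.8% in operated 6-month eyes. In unoperated 5-week eyes it held 53.7% to 57.2%, in operated eyes 59.3% to 62.3% at 5 weeks and 59.6% to 61.3% at 6.5 weeks. Operated and unoperated ranges were separate in each comparison. How the fragments were divided between overlapping transcripts is an estimate of the authors' pipeline, and no test was made of these shares.

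COL1A1, the alpha-1 chain of type I collagen, went in opposite directions at the 2 ages. At 6 months it ranged from 430 to 708 FPKM (median 557) in unoperated and from 651 to 1017 FPKM (median 828) in operated eyes, a rise of 1.41-fold (0.49 ± 0.11, adjusted p = 0.000576) with a small overlap. In juveniles it fell from 1797 to 2185 FPKM (median 1906) to 1496, 1610 and 1205 FPKM at 5 weeks and 1551, 1316 and 1364 FPKM at 6.5 weeks (-0.44 ± 0.11, adjusted p = 0.00197). All 6 operated juvenile eyes lay below all 7 unoperated ones.

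The partner chain COL1A2 did not follow COL1A1 at 6 months. Its range there was 491 to 691 FPKM (median 620) in unoperated and 368 to 621 FPKM (median 540) in operated eyes, a change of -0.21 ± 0.10 that did not pass (adjusted p = 0.0755). It did pass when each library was scaled to the same FPKM sum (-0.36, adjusted p = 0.00546). In juveniles COL1A2 fell by 0.52 ± 0.10 (adjusted p = 0.000145), close to the fall of COL1A1. The COL1A1 to COL1A2 ratio was 0.876 to 1.05 in unoperated and 1.31 to 1.91 in operated 6-month eyes, with no overlap, and 1.45 to 1.76 in unoperated 5-week eyes.

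COL3A1, the homotrimeric collagen that mixes with type I in distensible tissue, did not pass in either surgery comparison as fitted. Its range was 298 to 490 FPKM (median 408) in unoperated and 397 to 543 FPKM (median 452) in operated 6-month eyes, a change of 0.21 ± 0.11 (adjusted p = 0.111) that passed under median-ratio scaling (0.31, adjusted p = 0.0299). The juvenile change was -0.09 ± 0.11 (adjusted p = 0.538), from a median of 858 FPKM to 673, 888 and 680 FPKM at 5 weeks and 991, 982 and 754 FPKM at 6.5 weeks.

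Collagen V starts and limits the width of type I fibrils, and its 3 chains parted. COL5A1 fell by 0.29 ± 0.08 at 6 months (adjusted p = 0.00589, lost under median-ratio scaling at adjusted p = 0.0651) and by 0.56 ± 0.08 in juveniles. COL5A2 rose by 0.45 ± 0.10 at 6 months (adjusted p = 0.000656) and had a juvenile change of 0.19 ± 0.10 that did not pass. The COL5A1 to COL5A2 ratio was 1.86 to 2.31 in unoperated and 1.13 to 1.53 in operated 6-month eyes.

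COL5A3 was low in unoperated juveniles, at 2.80 to 3.49 FPKM, and stood at 44.8, 8.82 and 3.99 FPKM in operated eyes of 5 weeks and 15.6, 5.68 and 4.98 FPKM in those of 6.5 weeks. All operated juvenile eyes lay above the unoperated ones, but by amounts that ranged widely (1.48 ± 0.41, adjusted p = 0.00614). With the operated 6.5-week eyes alone the call was lost (adjusted p = 0.077), and it was also lost without the 8 libraries rich in CRYAA (adjusted p = 0.0593). At 6 months the change of 0.84 ± 0.41 did not pass (adjusted p = 0.0951).

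Of the low fibrillar members, COL24A1 fell by 0.91 at 6 months and by 0.47 in juveniles, where the call was lost in 4 of 29 alternatives. COL27A1 fell by 0.41 and 0.32, and its juvenile call was lost in 7 of 29 alternatives (with the operated 6.5-week eyes alone it was -0.16, adjusted p = 0.392). COL11A1 passed in neither comparison, and COL11A2, which is in the table partly through its level in unoperated 5-week eyes, fell by 0.55 in juveniles and changed by 0.40 ± 0.17 at 6 months (adjusted p = 0.0524). The juvenile COL11A2 call was lost with the operated 5-week eyes alone (-0.48, limma adjusted p = 0.0926) and without the CRYAA-rich libraries (-0.61, adjusted p = 0.0744). The 6-month change of COL11A2 passed in some alternatives, such as median-ratio scaling (0.47, adjusted p = 0.0264).

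Among network collagens COL4A1 and COL4A2, the ubiquitous pair of the collagen IV mesh, rose, and at 6 months by more than any other member, while none of the other collagen IV chains rose. At 6 months 2 of 8 network members rose, 3 fell (COL4A4, COL4A6 and COL8A2) and 3 did not pass. These shares were near those of all genes (16.0% rose and 30.1% fell). In juveniles the same pair rose, 5 fell and COL8A1 did not pass, where 16.5% of all genes rose and 20.8% fell.

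COL4A1 ranged from 29.1 to 39.6 FPKM (median 32.5) in unoperated and from 99.0 to 201 FPKM (median 173) in operated 6-month eyes. COL4A2 ranged from 32.7 to 39.1 FPKM (median 34.7) and from 80.3 to 140 FPKM (median 125) in the same groups. The lowest operated eye was above the highest unoperated eye for each gene. COL4A1 rose 4.75-fold (2.25 ± 0.23, adjusted p = 3.24e-08) and COL4A2 rose 3.22-fold (1.69 ± 0.16, adjusted p = 7.4e-09). Without the libraries rich in CRYAA the changes were 2.13 (adjusted p = 8.66e-08) and 1.55 (adjusted p = 8.19e-08).

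In juveniles the pair rose less, from a higher and more variable starting level. COL4A1 was 63.4 to 197 FPKM (median 89.6) in unoperated eyes, and 225, 158 and 192 FPKM at 5 weeks and 256, 179 and 184 FPKM at 6.5 weeks in operated eyes, with overlap (0.85 ± 0.23, adjusted p = 0.00469). COL4A2 was 65 to 132 FPKM (median 83.3) in unoperated eyes, and 186, 142 and 135 FPKM at 5 weeks and 195, 152 and 168 FPKM at 6.5 weeks in operated eyes, without overlap (0.77 ± 0.16, adjusted p = 0.000411).

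Among the unoperated 5-week eyes the highest COL4A1 levels stood in the 3 libraries with the most lens crystallin. Replicates 2, 4 and 7, with 16756, 2374 and 2260 FPKM of CRYAA, held 169, 168 and 197 FPKM of COL4A1, and the other 4 held 63.4 to 89.6 FPKM. One of those 4, replicate 5, had 1195 FPKM of CRYAA and 69.2 FPKM of COL4A1. COL4A3 and LAMA1 were likewise highest in replicates 2, 4 and 7, at 15.0 to 25.7 FPKM and 9.63 to 13.3 FPKM, with replicate 1 next for COL4A3 at 14.2 FPKM. So were COL4A2 (128 to 132 FPKM), COL4A6 (58.2 to 72.6 FPKM) and NID1 (106 to 110 FPKM). The other 4 eyes held at most 83.3, 53.8 and 87.0 FPKM of these genes. The unoperated 6-month replicate 3, with 1315 FPKM of CRYAA, held 32.5 FPKM of COL4A1, 6.61 FPKM of COL4A3 (the lowest of its group) and 1.55 FPKM of LAMA1. The lens capsule is itself a basement membrane laid down by lens cells, and the part of lens tissue in these levels was not tested. Without the 8 libraries above 1000 FPKM of CRYAA the juvenile rise was 1.28 for COL4A1 (adjusted p = 0.000113) and 1.02 for COL4A2 (adjusted p = 4.8e-05). Of 14 lens list genes 4 were measured, and their summed level spanned 3.79 to 22004 FPKM within the unoperated 5-week group.

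**Figure D4:**
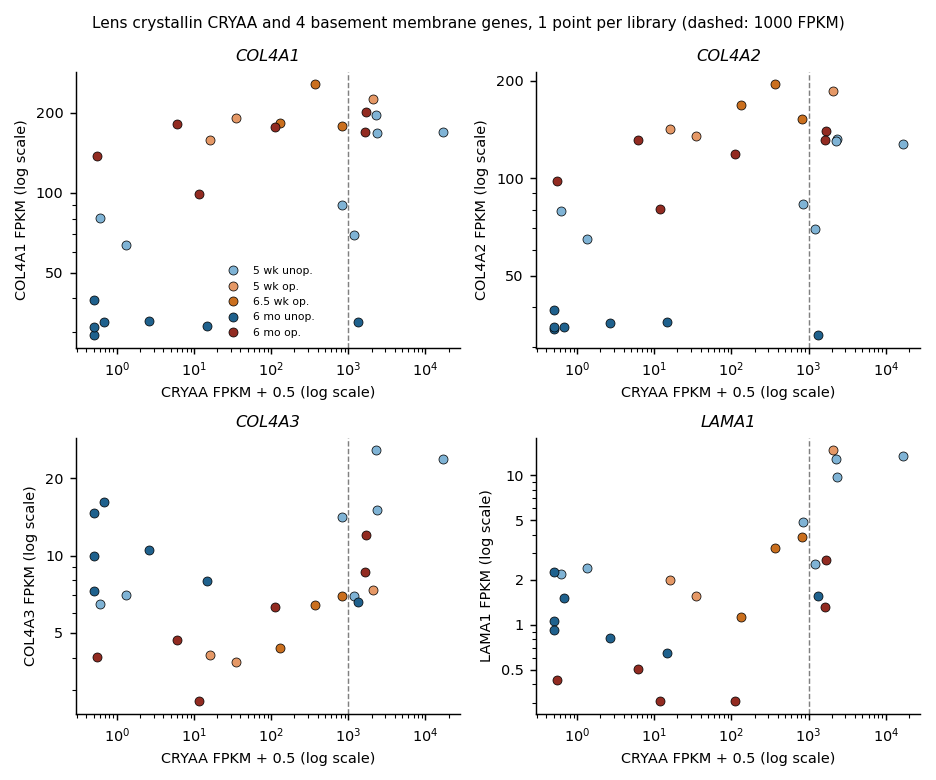
FPKM of COL4A1, COL4A2, COL4A3 and LAMA1 (vertical, log scale) against FPKM + 0.5 of the lens crystallin CRYAA (horizontal, log scale), 1 point per library, coloured by group; the dashed line marks 1000 FPKM of CRYAA. The 3 unoperated 5-week eyes with the most CRYAA hold 168 to 197 FPKM of COL4A1, beside 63.4 to 89.6 FPKM in the other 4, and no unoperated 6-month eye exceeds 39.6 FPKM.

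The collagen IV chains of specialised basement membranes went down or did not pass. COL4A5, which pairs with COL4A6 or with COL4A3 and COL4A4, changed by 0.03 ± 0.12 at 6 months and fell by 0.52 ± 0.12 in juveniles (adjusted p = 0.00137). COL4A6 fell by 0.63 and 0.48, COL4A4 by 0.66 and 0.83, and COL4A3 changed by -0.74 ± 0.34 (adjusted p = 0.0742) at 6 months and fell by 1.13 in juveniles. Without the CRYAA-rich libraries COL4A3 passed at 6 months (-1.22, adjusted p = 0.00158) and no longer passed in juveniles (-0.79, adjusted p = 0.0718).

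The balance between the ubiquitous and the specialised chains differed between operated and unoperated eyes. The COL4A2 to COL4A5 ratio was 0.748 to 1.06 in unoperated and 2.12 to 3.71 in operated 6-month eyes. Juvenile eyes held 0.709 to 1.40 without surgery, 1.96 to 2.78 at 5 weeks and 2.18 to 3.23 at 6.5 weeks with it. The operated and unoperated ranges did not overlap at either age. Gene order in RefSeq's table (assembly mOryCun1.1) places COL4A1 next to COL4A2, COL4A3 next to COL4A4 and COL3A1 next to COL5A2.

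Collagen VIII forms hexagonal lattices, best known from the basement membrane of the corneal endothelium. COL8A2 fell from 57.0 to 78.7 FPKM (median 72.2) in unoperated to 24.0 to 43.4 FPKM (median 37.5) in operated 6-month eyes, without overlap (-1.01 ± 0.11, adjusted p = 1.23e-07), and by 0.79 in juveniles. COL8A1 passed in neither, at -0.04 ± 0.19 and -0.40 ± 0.19.

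Vascular markers rose alongside COL4A1 and COL4A2. Of 12 endothelial genes, all measured, 8 rose and 1 (CLDN5) fell at 6 months, and 7 rose and 1 fell in juveniles. Of all genes 16.0% rose at 6 months and 16.5% in juveniles. The summed level of the endothelial genes was 199 to 242 FPKM in unoperated and 262 to 436 FPKM in operated 6-month eyes. Juvenile sums were 191 to 226 FPKM without surgery, 322 to 401 FPKM in operated eyes of 5 weeks and 379 to 450 FPKM in those of 6.5 weeks. Of 6 pericyte genes 4 rose and none fell at each age, and all 10 measured macrophage genes rose at each age. The part of vascular cells in the rise of COL4A1, COL4A2, COL15A1 and LAMA4 was not tested.

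COL15A1, a collagen of the outer face of vascular and muscle basement membranes, rose at both ages. It ranged from 10.4 to 15.8 FPKM (median 12.4) in unoperated and from 28.6 to 43.9 FPKM (median 37.1) in operated 6-month eyes. In juveniles it was 18.4 to 21.4 FPKM (median 21.1) without surgery, and 35.0, 40.7 and 49.2 FPKM at 5 weeks and 67.8, 45.0 and 38.4 FPKM at 6.5 weeks with it. Both comparisons were free of overlap, at 2.76-fold higher (adjusted p = 4.5e-10) and 2.16-fold higher (adjusted p = 6.04e-08). The 2 table rows that RefSeq describes as collagen XVIII, the closest relative of type XV, carry locus numbers and lie outside the rule. They rose by 0.66 and 0.61 at 6 months and by 0.42 and 0.50 in juveniles.

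The remaining collagens of the anchoring, transmembrane and other group behaved individually. COL23A1, a transmembrane collagen, fell by 0.88 ± 0.11 at 6 months and by 0.90 ± 0.11 in juveniles. COL26A1, at 1.89 to 3.41 FPKM in unoperated 5-week eyes and 0.16 to 0.52 FPKM in operated 6-month eyes, fell by 0.65 and 1.10, and it is in the table only through the unoperated 5-week eyes, which favours the juvenile fall. COL13A1, a transmembrane collagen of cell adhesion sites, rose by 0.29 ± 0.09 at 6 months, which did not pass at equal FPKM sums per library (adjusted p = 0.162). COL7A1, the anchoring fibril collagen, and COL28A1 passed in neither.

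Collagen VI, the beaded-filament collagen around cells, fell in 2 of its 3 chains at 6 months and in none in juveniles. COL6A1 ranged from 125 to 174 FPKM in unoperated and from 99.3 to 129 FPKM in operated 6-month eyes (-0.40 ± 0.07, adjusted p = 6.41e-05), and COL6A2 changed by -0.43 ± 0.11 (adjusted p = 0.00297). COL6A3 changed by 0.07 ± 0.12 and 0.27 ± 0.12. By limma no collagen VI chain changed in juveniles, and 1 (COL6A3) had an unadjusted p under 0.05. At equal FPKM sums per library COL6A1 did pass there (-0.25, adjusted p = 0.0124).

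Laminins and nidogens are the partners of collagen IV in basement membranes. Of 8 laminins 1 rose and 4 fell at 6 months (all genes 16.0% and 30.1%), and 1 rose and 2 fell in juveniles, which is near the shares of all genes (16.5% and 20.8%). Among these 8, LAMA4, the alpha chain of the vascular laminins, was the riser at both ages. It ranged from 11.8 to 14.1 FPKM (median 13.1) in unoperated and from 15.5 to 27.1 FPKM (median 19.9) in operated 6-month eyes (0.62 ± 0.10, adjusted p = 1.75e-05). In juveniles it was 16.3 to 18.8 FPKM (median 18.1) without surgery, and 26.7, 31.7 and 29.2 FPKM at 5 weeks and 42.5, 41.1 and 29.0 FPKM at 6.5 weeks with it (0.86 ± 0.10, adjusted p = 1.87e-07). The groups were separate at both ages. The row described as laminin gamma-1 carries a locus number and is not among the 8. It held 54.6 to 62.1 FPKM in unoperated and 64.3 to 78.8 FPKM in operated 6-month eyes, without overlap. In juveniles its ranges overlapped, at 93.8 to 112 FPKM without surgery. With surgery they were 92.6 to 116 FPKM at 5 weeks and 98.8 to 111 FPKM at 6.5 weeks.

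LAMA2, the alpha chain of muscle and nerve basement membranes, fell from 15.9 to 29.1 FPKM (median 21.5) to 6.89 to 14.5 FPKM (median 10.7) at 6 months, without overlap (-0.98 ± 0.15, adjusted p = 1.06e-05), and by 0.61 ± 0.15 in juveniles. The beta chain LAMB2 fell by 0.54 and 0.36. Both juvenile calls were lost without the CRYAA-rich libraries at changes of about the same size (-0.51, adjusted p = 0.105 for LAMA2 and -0.34, adjusted p = 0.0865 for LAMB2). LAMB1 fell by 0.31 at 6 months, a call lost under median-ratio scaling (adjusted p = 0.0619). LAMC3 fell by 0.49 at 6 months and had a juvenile change of -0.21 ± 0.10. LAMA5, the alpha chain of mature epithelial and vascular membranes, changed by 0.08 ± 0.09 and -0.02 ± 0.09.

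Smooth muscle markers fell in the surgery comparisons too: of 8 measured genes of that list 6 fell at 6 months, and 5 fell and 1 (DES) rose in juveniles. Of all genes 30.1% fell at 6 months and 20.8% in juveniles. The summed level of the smooth muscle genes was 2092 to 2558 FPKM in unoperated and 1391 to 2173 FPKM in operated 6-month eyes. Juvenile sums were 1502 to 2296 FPKM without surgery, 1232 to 1603 FPKM in operated eyes of 5 weeks and 1631 to 2153 FPKM in those of 6.5 weeks, whose median of 1964 FPKM was that of the unoperated eyes (1963 FPKM). With age in unoperated eyes LAMA2 fell by 0.73 while 4 of the 8 genes rose and none fell. Their part in the fall of LAMA2 was not tested.

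NID2 fell at both ages. It ranged from 16.9 to 23.6 FPKM (median 19.9) in unoperated and from 9.85 to 15.3 FPKM (median 12.9) in operated 6-month eyes, and in juveniles from 36.8 to 49.3 FPKM (median 40.8) without surgery to 20.0, 21.7 and 22.2 FPKM at 5 weeks and 22.2, 19.4 and 21.5 FPKM at 6.5 weeks with it. Operated and unoperated eyes did not overlap (-0.65 ± 0.10, adjusted p = 1.11e-05, and -0.95 ± 0.10, adjusted p = 4.68e-08). NID1 did not follow: it changed by 0.37 ± 0.15 at 6 months (adjusted p = 0.0529, passing under median-ratio scaling at 0.0208) and fell by 0.44 ± 0.15 in juveniles, a call lost without the CRYAA-rich libraries (adjusted p = 0.387). The NID1 to NID2 ratio was 1.64 to 2.36 in unoperated and 2.21 to 6.29 in operated 6-month eyes.

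With age the members that passed all went one way in unoperated eyes. Among unoperated eyes, 32 of 46 members were lower at 6 months than at 5 weeks, 14 did not pass and none rose (28, 13 and 0 of the 41), beside 9.46% of all genes that fell and 11.4% that rose. By limma none of the members rose at an unadjusted p under 0.05 either. The median change was -0.70 for the members (-0.50 for the 41) and 0.04 for all genes. In 23 members every 6-month eye lay below every 5-week eye, which held for 3.99% of all genes, and in none did every 6-month eye lie above (4.26% of all genes). This comparison shares the unoperated groups with the surgery comparisons. The summed FPKM of the 36 collagens was 6163 to 6910 in unoperated 5-week eyes and 2714 to 3488 in unoperated 6-month eyes.

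**Figure D5:**
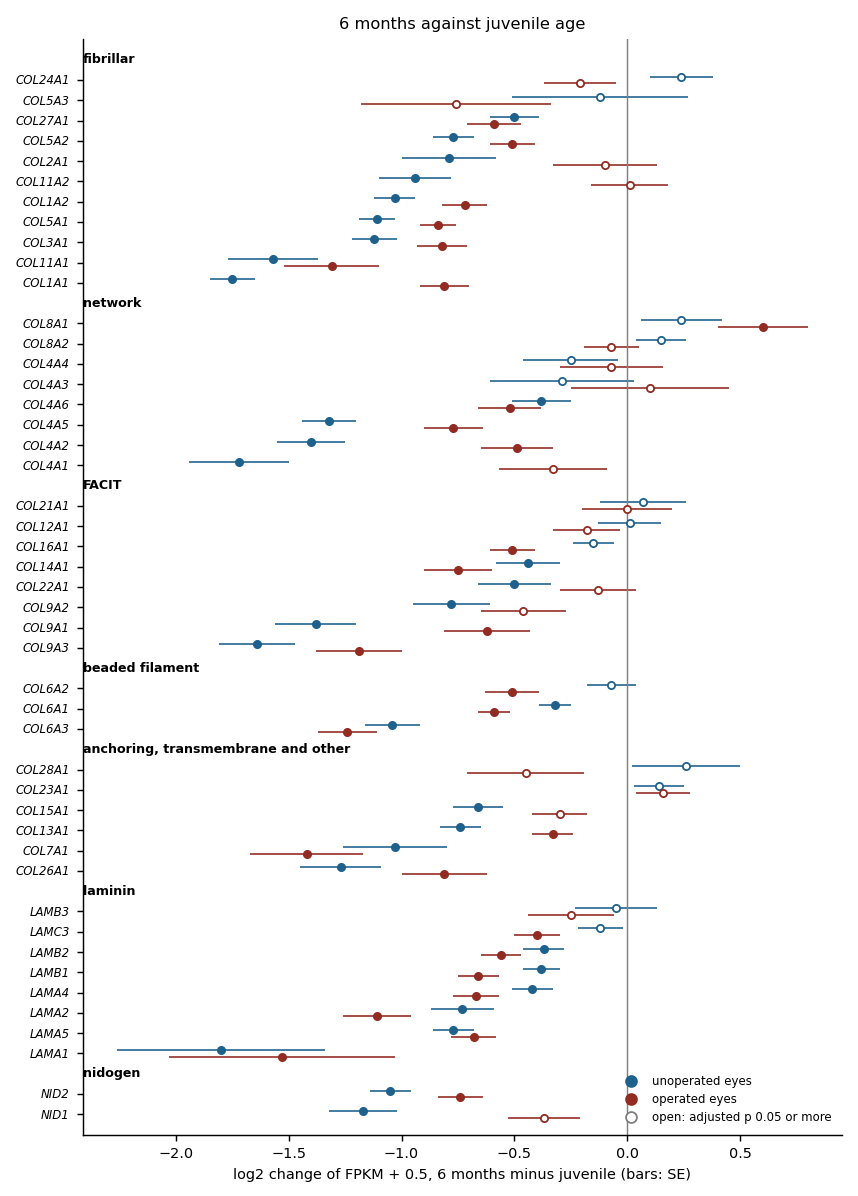
Log2 change (6 months minus juvenile, FPKM + 0.5) of each of the 46 members among unoperated eyes (blue) and among operated eyes (dark red), by class; bars are 1 SE and open points did not pass the test. In unoperated eyes 32 members are filled and lie left of 0 and no filled point lies to the right, and in operated eyes the single filled point to the right is COL8A1 at 0.60.

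Of the 11 fibrillar collagens 9 fell with age. COL1A1 had medians of 1906 and 557 FPKM at the 2 ages, a 3.36-fold fall (-1.75 ± 0.10, adjusted p = 3.21e-11), and COL1A2 fell 2.04-fold (-1.03 ± 0.09). COL3A1 fell 2.17-fold, COL5A1 2.16-fold and COL11A1, a minor fibril chain, 2.97-fold. The lowest 5-week eye exceeded the highest 6-month eye for each of these 5 genes. COL24A1 and COL5A3 did not pass, at 0.24 ± 0.14 and -0.12 ± 0.39.

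The collagen IV chains COL4A1, COL4A2 and COL4A5 fell 3.29-, 2.65- and 2.50-fold with age and COL4A6 1.30-fold, whereas COL4A3, COL4A4 and both collagen VIII chains did not pass. Without the CRYAA-rich libraries COL4A1 and COL4A2 still fell, by 1.23 (adjusted p = 0.000814) and 1.07 (adjusted p = 0.000158) in place of 1.72 and 1.40. Both nidogens fell, NID1 by 1.17 ± 0.15 and NID2 by 1.05 ± 0.09 (adjusted p = 6.37e-06 and 3.9e-08). Of the laminins 6 of 8 fell, from LAMB2 at -0.37 to LAMA1 at -1.80. LAMA1, the alpha chain of early embryonic membranes, is in the table only through the juvenile groups, which favours this fall, and its fall did not pass without the CRYAA-rich libraries (-1.09, adjusted p = 0.0575).

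The FACIT class split by age. The 3 collagen IX chains fell, COL9A3 by 1.64 ± 0.17, COL9A1 by 1.38 ± 0.18 and COL9A2 by 0.78 ± 0.17, and COL14A1 and COL22A1 fell by 0.44 and 0.50. The COL14A1 call was lost with the transcript of highest mean (-0.24, limma adjusted p = 0.202). The COL22A1 call was lost with lens and retina levels as covariates (-0.51, adjusted p = 0.0771). Both calls were also lost when certain single libraries were left out. COL12A1, COL16A1 and COL21A1 did not pass, at 0.01 ± 0.14, -0.15 ± 0.09 and 0.07 ± 0.19. COL12A1 and COL21A1 had been among the steepest falls with surgery. Collagen VI split too, with COL6A3 at -1.04 ± 0.12, COL6A1 at -0.32 ± 0.07 and COL6A2, which did not pass, at -0.07 ± 0.11.

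Without the 8 CRYAA-rich libraries 21 members fell with age in place of 32. The 11 whose call was lost were COL2A1, COL4A6, COL9A2, COL14A1, COL22A1, COL27A1, LAMA1, LAMA2, LAMA4, LAMB1 and LAMB2, and the fit has fewer libraries in both groups. For 9 of the 11 the change was of about the same size or larger, such as -0.93 against -0.79 for COL2A1, -0.78 in both for COL9A2 and -0.71 against -0.73 for LAMA2. It was smaller for COL4A6 (-0.18 against -0.38) and LAMA1 (-1.09 against -1.80). Cell division genes moved with age as well: of 8 on that list 7 fell among unoperated eyes. The summed level of 8 measured fibroblast genes was 1459 to 1669 FPKM in unoperated 5-week and 1558 to 1896 FPKM in unoperated 6-month eyes. DCN alone gave a median of 1382 FPKM of the 6-month sum. Of the 8 genes 2 rose (DCN and THY1) and 1 fell (PDGFRB) with age, with a median change of -0.10, and their part in the fall of the collagens was not tested.

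Among operated eyes, 6 months against the mean of both juvenile groups, 28 members fell, 1 rose and 17 did not pass (25, 1 and 15 of the 41), beside 9.78% of all genes that fell and 5.88% that rose. The median was -0.52, beside -0.01 for all genes. In 14 members every 6-month operated eye lay below every juvenile operated eye (3.47% of all genes). COL11A1 (-1.31), COL6A3 (-1.24) and COL9A3 (-1.19) fell most among the 41. COL7A1 (-1.42) and LAMA1 (-1.53) did not meet the bound of the table in operated 6-month eyes, which favours their falls, and the LAMA1 call was lost in 11 of 27 alternatives (without operated 5-week replicate 1, at 14.6 FPKM, it was -1.07, adjusted p = 0.124). COL1A1 fell by 0.81 ± 0.11, and COL4A1 did not pass (-0.33 ± 0.24, adjusted p = 0.385). COL8A1 was the member that rose (0.60 ± 0.20, adjusted p = 0.0385), and that call was lost in 17 of 28 alternatives.

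The difference between the 6-month and the juvenile surgery effect was tested as an interaction. It passed for 4 of 46 members, all with the more positive effect at 6 months, where 1.09% of all genes passed, 0.734% in that direction and 0.355% in the other. COL1A1 differed by 0.94 ± 0.15 (adjusted p = 0.00138), COL4A1 by 1.39 ± 0.32 (0.0291), COL4A2 by 0.91 ± 0.22 (0.0428) and COL11A2 by 0.95 ± 0.24 (0.0443). Their 6-month and juvenile effects were 0.49 and -0.44 for COL1A1, 2.25 and 0.85 for COL4A1, 1.69 and 0.77 for COL4A2, and 0.40 and -0.55 for COL11A2. COL11A2 is in the table through the unoperated 5-week and operated 6-month eyes, whose high values make its difference positive, so its call is not independent of that bound, and 3 of the 41 passed without it. COL1A1 passed with each library left out in turn. Without the CRYAA-rich libraries none of the 46 passed by limma, with 9 at an unadjusted p under 0.05, and COL1A1 stood at 1.04 (adjusted p = 0.0591). Cell division genes moved with the same contrast: 7 of 8 had the more positive effect at 6 months, with a median difference of 2.12 over the list, and their part in the difference was not tested.

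The calls of COL4A1, COL4A2 and COL11A2 for this difference changed in 12 of 42, 26 of 42 and 25 of 41 alternatives. For no FACIT collagen, laminin or nidogen did the difference pass, with NID1 nearest (0.81 ± 0.22, adjusted p = 0.0756). COL9A1, with effects of -1.82 and -2.58, differed by 0.76 ± 0.26 (adjusted p = 0.183).

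Operated eyes of 6.5 and 5 weeks were compared directly, 3 against 3. None of the 46 members changed by limma, where 0.0154% of all genes changed (0.00772% rose and 0.00772% fell). At an unadjusted limma p under 0.05 there were 4 members, 3 higher and 1 lower at 6.5 weeks. At that level 640 of all 12948 genes were higher and 699 were lower. In 4 members (COL6A1, COL16A1, COL27A1 and LAMB3) every 6.5-week eye lay above every 5-week eye, beside 6.77% of all genes, and in none below (4.56% of all genes).

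The genes that make, modify and cut these proteins were described by lists, whose counts are to be read beside the shares of all genes (16.0% rose and 30.1% fell at 6 months, 16.5% and 20.8% in juveniles, 11.4% and 9.46% with age), which several of them are near. Of 29 measured genes of collagen biosynthesis 10 rose and 5 fell with surgery at 6 months, and 4 rose and 9 fell in juveniles. The crosslinking oxidase LOX rose from a mean of 9.88 ± 1.54 FPKM (SD, n = 7) to 27.8 ± 6.74 FPKM (n = 6) at 6 months (1.43 ± 0.12, adjusted p = 1.89e-09) and LOXL2 rose by 1.75 at 6 months and 1.06 in juveniles. The collagen galactosyltransferase COLGALT2 fell by 0.80 and 0.66. With age in unoperated eyes 1 rose and 10 fell, among them SPARC, a collagen chaperone of the matrix (-1.01 ± 0.09), the procollagen N-proteinase ADAMTS2 (-0.84) and the C-proteinase BMP1 (-1.02).

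Of 16 measured metalloproteinases, collagenolytic enzymes and inhibitors 8 rose and 3 fell at 6 months, and 6 rose and 1 fell in juveniles. The inhibitor TIMP1 rose by 2.01 ± 0.11 and 1.42 ± 0.11, MMP19 by 2.16 and 2.25, and the collagenolytic protease CTSK by 0.85 and 0.98. MMP9, a gelatinase also on the neutrophil list, rose by 2.81 ± 0.35 in juveniles, from a mean of 0.0686 FPKM to 8.98 FPKM at 5 weeks and 1.99 FPKM at 6.5 weeks. With age 3 rose and 3 fell, with MMP2 at -0.79 ± 0.11.

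Partners of the basement membrane counted 3 rises and 9 falls among 17 measured genes at 6 months and 3 rises and 5 falls in juveniles. TINAGL1 rose by 1.19 and 0.75 and FBLN2 by 1.35 and 0.83, while FREM1, of the Fraser complex that anchors epithelia, fell by 1.29 and 1.14. With age 2 rose and 5 fell, including the perlecan gene HSPG2 (-0.93 ± 0.13) and the collagen IV crosslinking peroxidase PXDN (-1.24 ± 0.15), which both fell in the same comparison as COL4A1.

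Of 17 measured collagen and laminin receptors 6 rose and 2 fell at 6 months, and 5 rose and 4 fell in juveniles. CD44 rose by 1.78 and 1.63 and the integrin ITGB4 by 0.62 and 0.72, while the collagen receptor kinase DDR2 fell by 0.83 and 0.60. Small leucine-rich proteoglycans, which coat collagen fibrils, gave 4 rises and 8 falls of 12 at 6 months and 3 rises and 8 falls in juveniles. FMOD fell by 0.90 and 1.53 and DCN by 0.68 in each, whereas EPYC rose by 1.91 and 0.85. With age 1 of the 12 rose (DCN) and 1 fell (ASPN).

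Of 17 measured fibril-associated and elastic fibre proteins 4 rose and 4 fell at 6 months, and 5 rose and 5 fell in juveniles. EFEMP1 rose by 1.38 and 1.78 and THBS1 by 3.07 and 2.22, while FBLN5 fell 2.17-fold at 6 months. With age 3 rose and 7 fell, with FBN2 at -1.78 ± 0.10 and ELN, elastin, at -1.73 ± 0.16, of a size with COL1A1 at -1.75.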

How the data were processed

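Per the labels, RNA of rabbit iris with ciliary body was sequenced in 26 libraries; 23 cornea samples of the 49 labelled were not analysed here. The authors deposited FPKM per transcript (16725 transcripts). The submitters' processing notes name HISAT2 2.0.4, Bowtie2 2.2.5 and RSEM 1.2.12; their roles and the genome build are not given in the notes used here. FPKM was summed per symbol (12948 genes). The depth is unknown, so no counting error can be given.

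Changes were tested with limma 3.58.1 (R 4.3.3) on log2(FPKM + 0.5) over all genes and 5 groups, with trended, robust moderation and Benjamini-Hochberg adjustment. The filter (1 FPKM in at least 3 libraries) removed 0 genes. The script was tested on simulated data. Named were all members, with per-library values for 6 markers and up to 4 called members per class with the largest change, and up to 4 genes of lowest p per pathway list; further pathway genes (LOX levels, MMP2, MMP9, DCN, ASPN and others) were chosen after their values were seen. Members, classes and lists were chosen with earlier results of these data known. Scaling, pseudocount, filter, covariate, transcript and left-out-library alternatives were run. Class sums, shares and ratios are descriptions without a test.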

Additional observations from a re-analysis of the deposited data

Results flagged for a closer look

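Of 138 groups of 4 to 10 libraries examined (each member in each such group), 5 held a library far from the others; chance alone marks about 1 in 20 groups. In unoperated 6-month eyes COL11A1 was 2.23 FPKM in replicate 1 beside 4.28 to 5.14 FPKM in the others, COL13A1 was 18.7 FPKM in replicate 2 beside 14.3 to 15.8 FPKM, and COL4A1 was 39.6 FPKM in replicate 6 beside 29.1 to 32.8 FPKM. COL15A1 was 18.4 FPKM in replicate 2 of the unoperated 5-week eyes beside 20.2 to 21.4 FPKM. COL27A1 was 5.59 FPKM in replicate 5 of the operated 6-month eyes beside 3.37 to 4.03 FPKM.

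For 4 genes the surgery effect differed between 6 months and juveniles by the interaction test of limma. The 6-month effect minus the juvenile effect was 0.94 for COL1A1 (adjusted p = 0.00138), 1.39 for COL4A1 (adjusted p = 0.0291), 0.91 for COL4A2 (adjusted p = 0.0428) and 0.95 for COL11A2 (adjusted p = 0.0443) on the log2 scale. COL11A2 is in the table only through the unoperated 5-week and operated 6-month eyes, which favours a positive difference.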

How the results depend on the processing

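Across alternatives that left out no single library, 3978 of 4104 member values kept their call, as did 3729 of 3864 with 1 library left out. Values that passed in neither fit count here as kept, whatever their sign. Of the calls, 0 changed direction. The count for age in unoperated eyes was 21 in place of 32 without the libraries above 1000 FPKM of CRYAA. The count for the difference of the surgery effects, 4 as reported, was 1 with lens and retina levels as covariates, with either operated juvenile group alone, and without the 3 5-week libraries whose animal numbers come late in the numbering. It was 2 at a mean of at least 5 FPKM and with the transcript of highest mean, and 0 without the CRYAA-rich libraries. With 1 library left out it ran from 1 to 7. It was 1 or 2 without any of 14 libraries (operated 5-week replicates 2 and 3, operated 6.5-week replicate 2, operated 6-month replicates 1, 2 and 4, unoperated 5-week replicates 2, 4 and 7, unoperated 6-month replicates 1, 2, 3, 4 and 7) and 7 without operated 6-month replicate 5. The other counts, with 1 library left out, were 30 to 33 for surgery at 6 months and 28 to 30 for surgery in juveniles. Age ran from 30 to 32 in unoperated and from 24 to 29 in operated eyes, and 6.5 against 5 weeks from 0 to 0. Other settings moved some of these counts further. Surgery in juveniles gave 21 (4 up and 17 down) in place of 30 without the CRYAA-rich libraries. It gave 26 with the operated 6.5-week eyes alone. Age in operated eyes gave 22 in place of 29 with the operated 5-week eyes alone or with the compared groups only. Equal FPKM sums moved the median of all genes from -0.11 to -0.24 at 6 months and from -0.06 to -0.18 in juveniles. Late numbering as a model term was chosen after seeing the data. Causes were not tested. No paired analysis was possible because every library has its own animal number and replicate numbers only follow the order of deposit. Unknown depth limits statements on members near 1 FPKM.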
